A study of Mus musculus with 9 samples.

Results

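Dapl1, Nsg2, Lad1 and Ramp1 are 4 little-studied genes of tumour-infiltrating mouse CD8+ T cells, of 56860 genes in the count table. They were selected on their read counts, which were lower in the sialoglycan-low PD-1-positive cells than in the sialoglycan-high PD-1-positive cells, so that difference is given here as a description and carries no test. All 4 were found in the table and all 4 passed the filter on low counts, which left 15292 genes for testing. The study sorted CD8+ T cells by flow cytometry from tumours of the mouse melanoma B16, labelled B16-OVA (a line that expresses ovalbumin) on the samples and B16F10 in the description of the series. The sort used α2,6-linked sialoglycan on the cell surface and PD-1, an inhibitory receptor that T cells carry after activation. It gave 3 groups of 3 libraries each: Sia2,6hiPD-1−CD8+ (written SiaHi_PD1neg), Sia2,6hiPD-1+CD8+ (SiaHi_PD1pos) and Sia2,6loPD-1+CD8+ (SiaLo_PD1pos). All 9 libraries are labelled wild type and untreated. Whether the replicates came from separate animals is not said in the labels, so p-values measure the spread of the libraries alone, and that spread may be technical. There was no sialoglycan-low PD-1-negative group, so the sialoglycan comparison exists among PD-1-positive cells only.

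Sialic acids cap the sugar chains of cell surface proteins, and ST6GAL1 is the main enzyme that adds them in α2,6 linkage to N-linked chains. On T cells the amount of this cap changes with activation and differentiation. The 4 genes have no shared pathway. DAPL1 is a small protein related to DAP, known from the retinal pigment epithelium as a brake on proliferation and reported in mouse CD8+ T cells to restrain the transcription factor NFATc2. NSG2 is a membrane protein of neuronal endosomes that takes part in receptor trafficking. LAD1, ladinin, is a protein of the anchoring filaments that tie epithelial cells to the basement membrane. RAMP1 is a single-pass membrane protein that joins the receptor CALCRL to form the receptor for the neuropeptide CGRP, which signals through cyclic AMP.

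The upstream sequence of each gene is shown because the 4 genes share a direction in the contrast that chose them, and short motifs of T cell transcription factors can be looked for in it. Each line below gives the 250 bases before an annotated transcript start in RefSeq on GRCm38.p6, plus strand, 5′ to 3′, with matches to the motifs searched in capitals. For Nsg2, RefSeq gave 2 such windows and the first is printed; it lies inside the RefSeq span of the gene, which begins farther upstream at 31999704. The motifs were CTTTGA and CTTTGT (TCF/LEF factors), TGTGGT (RUNX factors) and TGGAAA (NFAT factors), on both strands, and none of these overlaps another. A match on the minus strand appears as its reverse complement.
Dapl1, chr2:59484403-59484652: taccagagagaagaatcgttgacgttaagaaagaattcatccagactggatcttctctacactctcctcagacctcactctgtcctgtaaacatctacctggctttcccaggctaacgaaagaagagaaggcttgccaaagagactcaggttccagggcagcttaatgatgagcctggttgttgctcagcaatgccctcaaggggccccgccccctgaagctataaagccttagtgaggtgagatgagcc
Nsg2, chr11:32000169-32000418: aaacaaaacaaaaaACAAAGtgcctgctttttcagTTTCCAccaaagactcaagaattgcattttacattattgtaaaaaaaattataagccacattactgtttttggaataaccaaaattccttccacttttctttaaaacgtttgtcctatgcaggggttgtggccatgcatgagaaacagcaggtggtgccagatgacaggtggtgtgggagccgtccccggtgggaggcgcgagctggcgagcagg
Lad1, chr1:135818348-135818597: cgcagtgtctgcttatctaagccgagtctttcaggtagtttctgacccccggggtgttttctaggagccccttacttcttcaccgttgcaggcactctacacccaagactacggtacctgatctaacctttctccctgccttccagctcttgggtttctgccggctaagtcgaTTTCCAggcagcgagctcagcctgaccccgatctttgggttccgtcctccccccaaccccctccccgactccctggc
Ramp1, chr1:91179572-91179821: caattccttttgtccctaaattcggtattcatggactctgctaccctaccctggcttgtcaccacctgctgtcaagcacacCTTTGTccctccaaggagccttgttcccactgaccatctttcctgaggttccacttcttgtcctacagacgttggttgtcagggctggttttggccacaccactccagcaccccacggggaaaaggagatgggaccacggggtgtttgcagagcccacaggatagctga
The window of Dapl1 held none of the motifs. The printed window of Nsg2 held CTTTGT on the minus strand at -236 from its own start site and TGGAAA on the minus strand at -215, whereas the second window of Nsg2, chr11:32000450-32000699, held none. The window of Lad1 held TGGAAA on the minus strand at -77, and that of Ramp1 held CTTTGT on the plus strand at -169. Among 32851 windows of the same length, 27.6% held either TCF/LEF motif, 14% TGTGGT and 18.6% TGGAAA, so matches of this kind are common and describe letters only.

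Each gene has an entry of its own in the count table and overlaps no other gene there. The table places Dapl1 on chromosome 2 from 59314997 to 59335364, Nsg2 on chromosome 11 from 31950463 to 32009202, Lad1 on chromosome 1 from 135746336 to 135761080, and Ramp1 on chromosome 1 from 91107544 to 91152918, all on the plus strand. The table names no build and these positions are not those of GRCm38, so the RefSeq windows were matched by gene symbol and not by position. The nearest tested genes were Pkp4 and Tanc1 beside Dapl1, Cpeb4 and Il9r beside Nsg2, Tnni1 and Tmem9 beside Lad1, and Gm7776 and Ube2f beside Ramp1. None of these 8 neighbours was called between the PD-1-positive groups, beside 1.4% of all tested genes. The smallest adjusted p in edgeR's quasi-likelihood test was 0.184, for Il9r. The log2 fold change was -2.94 for Il9r and -3.69 for Tnni1, on only 188 and 200 reads over the 9 libraries. With so few reads, the lack of a call does not show that they were level. The other neighbours lay between -0.33 (Ube2f) and 0.93 (Gm7776).

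The libraries held between 9714020 and 15030442 counts. Pdcd1, the gene of PD-1, checked the PD-1 gate: it averaged 54.9 ± 20.9 CPM (CPM here are counts relative to the library total, scaled by TMM; SD, n = 3) in SiaHi_PD1neg, 898.5 ± 38.0 in SiaHi_PD1pos and 1122 ± 35.7 in SiaLo_PD1pos. The CD8+ label held less well for the SiaHi_PD1neg libraries. There, 10 T cell core genes (the CD3 chains, T cell receptor constant regions, Lck and both CD8 chains) summed to 1610 to 1753 CPM, against 5645 to 7316 in SiaHi_PD1pos and 6370 to 7166 in SiaLo_PD1pos. In the same libraries Cd4 averaged 320.3 ± 80.5 CPM, against 32.9 ± 7.18 and 4.18 ± 1.86, and markers of dendritic cells, melanoma and macrophages were high. Levels of the 4 genes are therefore also given per 10000 reads of the 10 T cell core genes. That scale assumes equal transcripts of the 10 core genes per T cell, and that reads of the 4 genes come from T cells. Neither was tested.

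On the TMM scale Dapl1 was high in SiaHi_PD1pos alone. Its TMM-scaled level was 7.94, 9.40 and 6.68 CPM in the 3 SiaHi_PD1neg libraries, 45.1, 48.9 and 41.2 in SiaHi_PD1pos, and 4.76, 5.06 and 5.71 in SiaLo_PD1pos. These ranges did not overlap between groups, and the order from low to high was SiaLo_PD1pos, SiaHi_PD1neg, SiaHi_PD1pos. How many of all tested genes separate between groups in this way was not counted, so such separation is a description here and below. The lowest level rested on 66 to 71 reads per library and the highest on 523 to 621. The group means were 8.01 ± 1.36, 45.0 ± 3.87 and 5.17 ± 0.485 CPM. On this scale Dapl1 was low in a sialoglycan-high group as well as in the sialoglycan-low one. Per 10000 T cell core reads it averaged 47.4, 71.6 and 7.68 in SiaHi_PD1neg, SiaHi_PD1pos and SiaLo_PD1pos, so that on that scale it was low in SiaLo_PD1pos alone.

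Nsg2 followed another order. Its 3 SiaHi_PD1neg libraries stood at 52.1, 54.7 and 52.0 CPM, those of SiaHi_PD1pos at 32.3, 31.1 and 31.2, and those of SiaLo_PD1pos at 4.16, 2.96 and 4.93. The groups did not overlap, and both sialoglycan-high groups stood well above the sialoglycan-low one. The means were 52.9 ± 1.49, 31.5 ± 0.70 and 4.02 ± 0.992 CPM, and the coefficient of variation among replicates was 2.82% and 2.22% in the sialoglycan-high groups, the smallest of the 4 genes in each. In SiaLo_PD1pos, where 41 to 62 reads were counted per library, it was 24.7%.

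On the TMM scale Lad1 resembled Dapl1, with more spread. Its level was 3.43, 1.72 and 8.25 CPM in SiaHi_PD1neg, 25.8, 13.8 and 19.2 in SiaHi_PD1pos, and 2.68, 1.81 and 3.72 in SiaLo_PD1pos. All SiaHi_PD1pos libraries lay above all others, whereas SiaHi_PD1neg and SiaLo_PD1pos overlapped, with means of 4.46 ± 3.39 and 2.74 ± 0.958 CPM. Replicate 3 of SiaHi_PD1neg stood above the other two, and the coefficient of variation of that group was 75.9%. The mean of SiaHi_PD1pos was 19.6 ± 6.04 CPM.

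Ramp1 was highest without PD-1. Its level was 26.8, 46.0 and 20.03 CPM in SiaHi_PD1neg, 8.61, 7.79 and 11.3 in SiaHi_PD1pos, and 2.88, 1.59 and 2.16 in SiaLo_PD1pos. No group overlapped another. The means were 31.0 ± 13.5, 9.22 ± 1.81 and 2.21 ± 0.649 CPM, the last from 22 to 43 reads per library. Nsg2 and Ramp1 shared the order SiaLo_PD1pos, SiaHi_PD1pos, SiaHi_PD1neg from low to high.

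**Figure D1:**
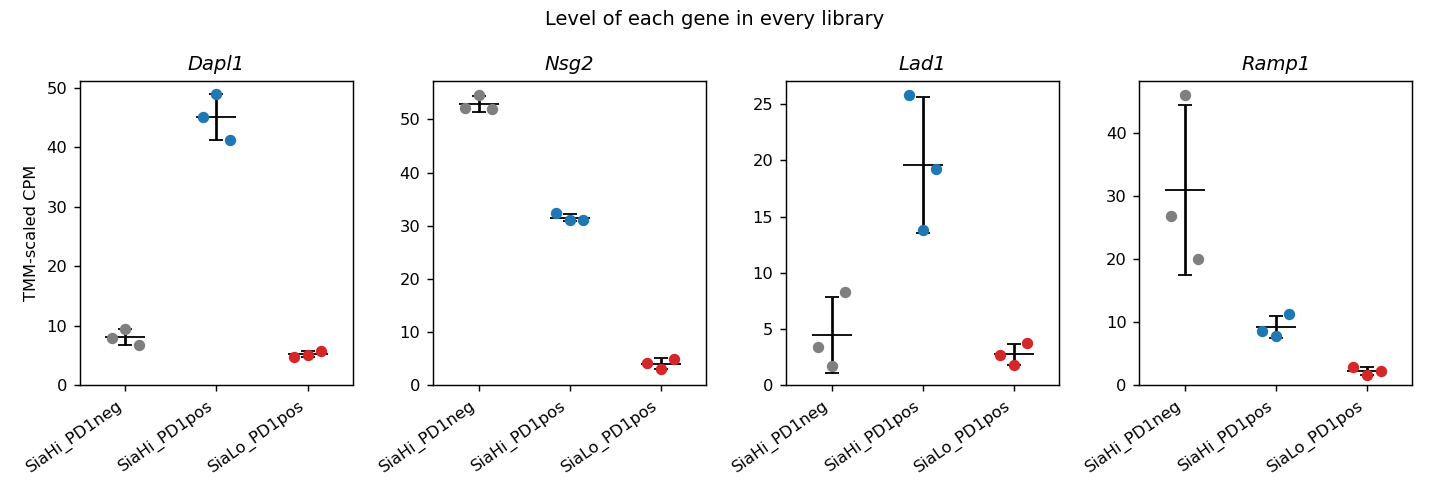
TMM-scaled CPM (linear axes that start at 0) of Dapl1, Nsg2, Lad1 and Ramp1 in each of the 9 libraries, with the mean and SD of each group of 3. On this scale Dapl1 and Lad1 were high in SiaHi_PD1pos alone (means of 45.0 and 19.6 CPM), and Nsg2 and Ramp1 were highest in SiaHi_PD1neg (52.9 and 31.0 CPM).

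Levels can be compared between genes only per length. Per kilobase of the gene length in the table, mean Dapl1 in SiaHi_PD1pos was 66.3 CPM per kb, above 94.9% of tested genes in that group. Nsg2 in the same group was at 7.59, Lad1 at 5.76 and Ramp1 at 3.05 CPM per kb, above 63.1%, 56.5% and 42.9% of tested genes. Only Dapl1 was among the more abundant transcripts there. In SiaLo_PD1pos Dapl1 was at 7.62 CPM per kb and the other 3 genes were at 0.732 to 0.966. In SiaHi_PD1neg Nsg2, Dapl1 and Ramp1 were close together at 12.7, 11.8 and 10.2 CPM per kb, and Lad1 was at 1.31.

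In the contrast that chose them, SiaLo_PD1pos minus SiaHi_PD1pos, the log2 fold change was -3.12 (SE 0.23) for Dapl1, -2.98 (SE 0.21) for Nsg2, -2.84 (SE 0.52) for Lad1 and -2.05 (SE 0.36) for Ramp1. These are levels 8.70-, 7.87-, 7.18- and 4.14-fold lower in the sialoglycan-low cells. At the threshold used for other genes, a Benjamini-Hochberg adjusted p under 0.05 in edgeR's quasi-likelihood test, 1.13% of tested genes were called lower and 1.4% in either direction. The 4 genes were chosen on this contrast, so no test is given for them, and the ranks and ranges that follow are a description. Ordered from the most negative log2 fold change of 15292 genes, Dapl1 ranked 95, Nsg2 103, Lad1 116 and Ramp1 231. With each of the 9 libraries left out in turn, the log2 fold change stayed between -3.19 and -3.04 for Dapl1, -3.13 and -2.79 for Nsg2, -3.11 and -2.59 for Lad1, and -2.30 and -1.85 for Ramp1. In bulk libraries, fewer cells that express a gene and less RNA per cell cannot be told apart.

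The other differences share libraries with that contrast and are given as values. On the TMM scale, from SiaHi_PD1neg to SiaHi_PD1pos, Dapl1 was 5.61-fold and Lad1 4.44-fold higher, whereas Nsg2 was 1.68-fold and Ramp1 3.36-fold lower. From SiaHi_PD1neg to SiaLo_PD1pos all 4 genes were lower, Nsg2 by 13.2-fold and Ramp1 by 13.9-fold, but Dapl1 by 1.55-fold and Lad1 by 1.62-fold. Both differences depended on the scale. Under T cell core scaling, Dapl1 was 1.51-fold and Lad1 1.19-fold higher in SiaHi_PD1pos than in SiaHi_PD1neg (log2 fold change 0.25, SE 0.56 for Lad1), and Nsg2 was 6.23-fold and Ramp1 12.2-fold lower. From SiaHi_PD1neg to SiaLo_PD1pos the same scaling gave 6.18-fold lower for Dapl1, 6.54-fold for Lad1, 52.7-fold for Nsg2 and 55.1-fold for Ramp1.

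The contrast that does not use the difference between the PD-1-positive groups, the mean of both on the log scale minus SiaHi_PD1neg, was tested. In it 23.5% of all tested genes were called higher and 23.3% lower, 46.8% in either direction. Dapl1 was higher in PD-1-positive cells (log2 fold change 0.93, SE 0.19, adjusted p = 0.00147, edgeR quasi-likelihood test), although 3 of the 6 PD-1-positive libraries, those of SiaLo_PD1pos, lay below all SiaHi_PD1neg libraries. Nsg2 was lower (-2.24, SE 0.16, adjusted p = 1.09e-07 by the same test) and so was Ramp1 (-2.77, SE 0.28, adjusted p = 2.66e-06), each in 6 of 6 PD-1-positive libraries. Lad1 did not pass (0.73, SE 0.44, adjusted p = 0.198). Lad1 rested on 1 library: without replicate 3 of SiaHi_PD1neg its log2 fold change was 1.54, with an adjusted p of 0.0109 in the edgeR test. For Dapl1 this average joins a group far above and a group below the reference.

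Since the T cell core genes were lower in SiaHi_PD1neg, the values in this contrast depended on the scale. Per 10000 T cell core reads, Dapl1 was at 47.0, 53.6 and 41.5 in SiaHi_PD1neg, 74.9, 66.8 and 72.9 in SiaHi_PD1pos, and 7.03, 7.05 and 8.96 in SiaLo_PD1pos. Nsg2 was at 309, 312 and 323, then 53.8, 42.5 and 55.2, and then 6.14, 4.13 and 7.74 in the same order of groups. On this scale SiaHi_PD1neg moved up against both PD-1-positive groups for each gene. Ramp1 was at 159, 263 and 124 in SiaHi_PD1neg, 14.3, 10.7 and 19.9 in SiaHi_PD1pos, and 4.26, 2.22 and 3.39 in SiaLo_PD1pos. Lad1 was at 20.3, 9.79 and 51.2 in SiaHi_PD1neg and at 42.9, 18.8 and 34.0 in SiaHi_PD1pos, so these groups overlapped, and at 3.96, 2.52 and 5.84 in SiaLo_PD1pos. SiaLo_PD1pos was the lowest group for all 4 genes and overlapped no other group, a position that the choice of the genes favours.

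With this scaling in the edgeR fit, the median log2 fold change of all tested genes in the PD-1 contrast went from 0.01 to -1.93, so values are best read against that shift. Dapl1 became -1.02 (adjusted p = 3.72e-04) and Lad1 -1.23 (adjusted p = 0.0305), the opposite sign from the TMM scale, yet 0.92 and 0.71 above the shifted median. Nsg2 became -4.18 and Ramp1 -4.70, which is 2.25 and 2.76 below it. The difference between the PD-1-positive groups hardly moved: it was -3.22 for Dapl1, -3.08 for Nsg2, -2.96 for Lad1 and -2.18 for Ramp1, with an all-gene median of -0.12.

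**Figure D2:**
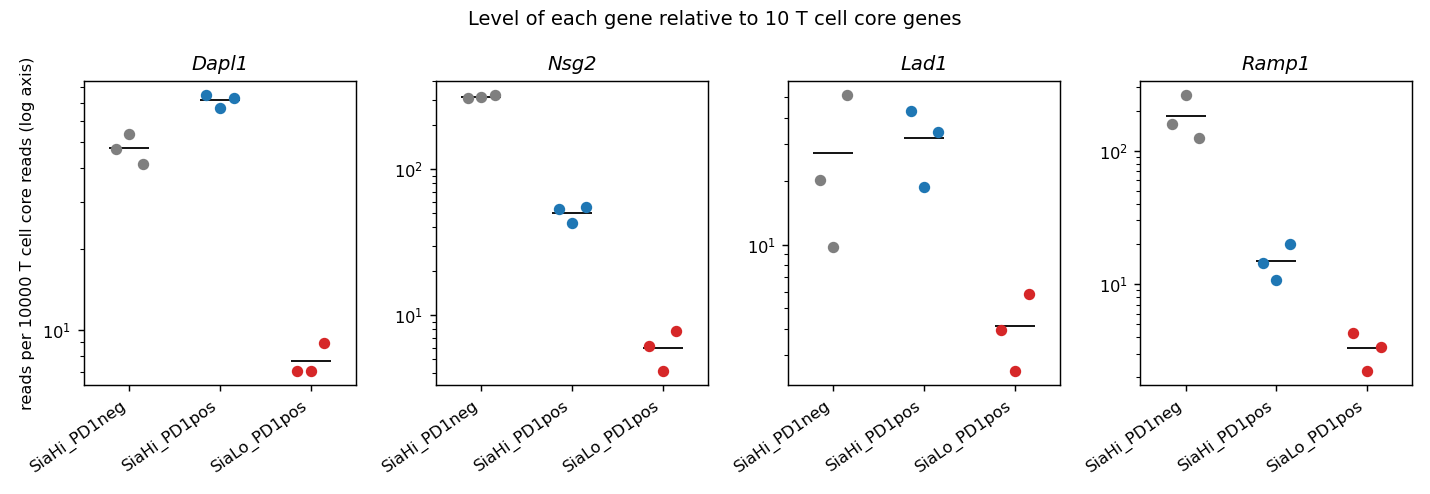
Reads of Dapl1, Nsg2, Lad1 and Ramp1 per 10000 reads of 10 T cell core genes (log axes) in each library, with a line at the mean of each group of 3. SiaLo_PD1pos is the lowest group for each gene, and for Lad1 the SiaHi_PD1neg and SiaHi_PD1pos libraries overlap.

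**Figure D3:**
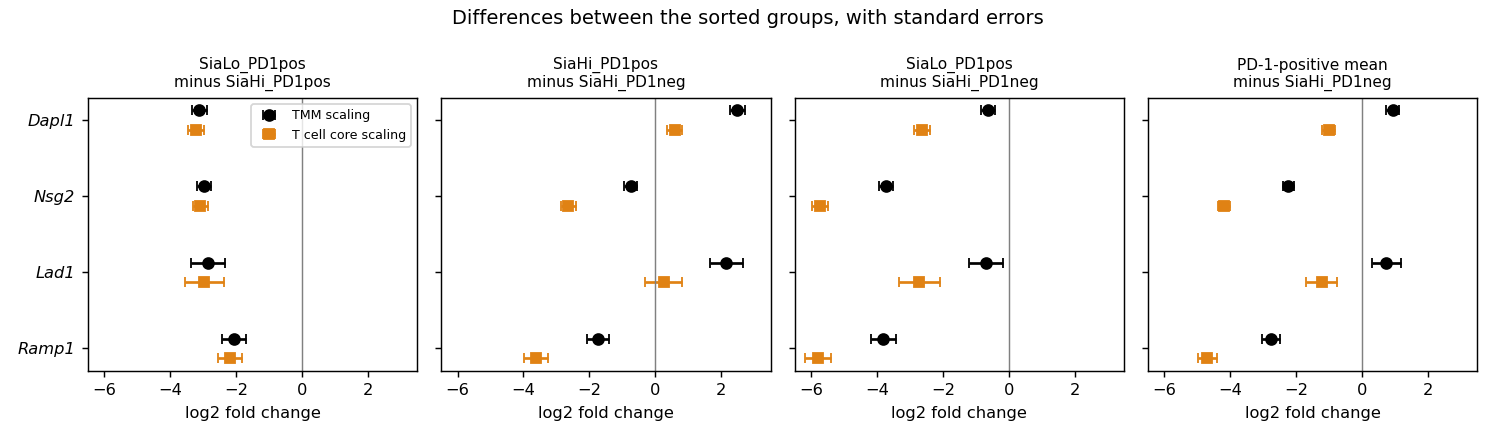
Log2 fold changes of the 4 genes in 4 differences between groups, as edgeR estimates with standard errors, under TMM scaling (black circles) and T cell core scaling (orange squares). The left panel is the contrast that chose the genes; in the right panel Dapl1 goes from 0.93 to -1.02 and Lad1 from 0.73 to -1.23 with the scaling.

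The profiles of the 4 genes fell into pairs. The root mean square difference between their centred log2 CPM over the 9 libraries, a measure in which 0 is an identical shape, was 0.552 between Nsg2 and Ramp1 and 0.713 between Dapl1 and Lad1. The 4 pairings across these were farther apart, from 1.5 for Dapl1 and Nsg2 to 1.92 for Lad1 and Ramp1.

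Among 10339 candidate genes with a mean of at least 5 CPM, those with the profile most like Dapl1 were Tnfsf11, which encodes RANK ligand, at a difference of 0.429, Tnfsf8, which encodes CD30 ligand, at 0.545, and Slamf6, a receptor of progenitor-like exhausted T cells, at 0.602. Mean Tnfsf11 was 5.76, 42.4 and 6.57 CPM in SiaHi_PD1neg, SiaHi_PD1pos and SiaLo_PD1pos, close to Dapl1 in all 3. Slamf6 was at 55.3, 149.95 and 43.7 CPM. For Nsg2 the most alike genes were Tdrp at 0.224, St6gal1 at 0.328 and Trat1, an adaptor bound to the T cell receptor complex, at 0.374. St6gal1, the sialyltransferase that makes the glycan used in the sort, averaged 98.6 ± 10.1, 63.8 ± 8.20 and 12.3 ± 5.20 CPM. Its log2 fold change between SiaHi_PD1pos and SiaLo_PD1pos was -2.38 (SE 0.25), given without a test since the gene stands here for its likeness to Nsg2.

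Lad1 had no neighbour as near: Ptgfrn stood at 0.628, Pou2af1, a coactivator of B cell transcription, at 0.665 and Dapl1 itself at 0.713. Ptgfrn averaged 5.03, 14.97 and 3.85 CPM and Pou2af1 3.22, 10.2 and 2.42 over the groups in the same order. For Ramp1 the most alike genes were Ldlrad4, an inhibitor of TGF-beta signalling, at 0.396, Qpct, which encodes a glutaminyl cyclase, at 0.417 and the MHC class II gene H2-Eb2 at 0.436. Ldlrad4 averaged 36.9, 9.19 and 3.78 CPM. These genes were picked for likeness over the same 9 libraries, so their shared shape is a description.

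**Figure D4:**
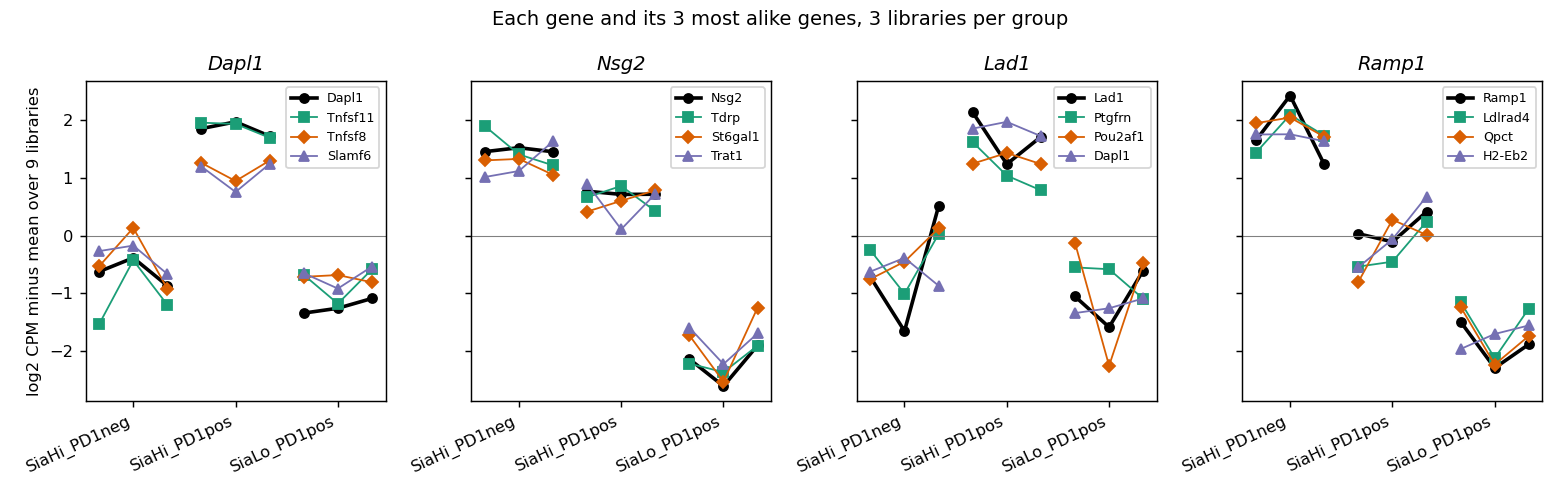
Centred log2 CPM (log2 CPM minus the gene's mean over 9 libraries) of each gene (black) and its 3 most alike genes, with replicates 1 to 3 of each group side by side and lines that only join libraries of a group. Tnfsf11 runs close to Dapl1 (root mean square difference of 0.429) and Tdrp and St6gal1 to Nsg2 (0.224 and 0.328).

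On the TMM scale the relatives of Dapl1 and Nsg2 were either level across the groups or barely detected. Dap, the paralog of Dapl1, averaged 112 ± 9.16, 97.0 ± 15.6 and 104 ± 2.76 CPM over the groups in the order used above, with a log2 fold change of 0.10 (SE 0.14) between the PD-1-positive groups and -0.16 (SE 0.12, adjusted p = 0.286, edgeR quasi-likelihood test) in the PD-1 contrast. Under T cell core scaling Dap stood at -2.12 in the PD-1 contrast, beside an all-gene median of -1.93. Nsg1, the paralog of Nsg2, stayed at 0.514 to 1.26 CPM on average in each group, with 91 reads over all 9 libraries. Caly, the third gene of the Nsg2 family, had 0 reads in all 9 libraries.

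For RAMP1 to form the CGRP receptor, its partner CALCRL must be present. Calcrl averaged 14.2 ± 4.32, 11.6 ± 1.00 and 12.02 ± 0.725 CPM, and its log2 fold change was 0.06 (SE 0.27) between the PD-1-positive groups and -0.27 (SE 0.23, adjusted p = 0.378, edgeR) in the PD-1 contrast. Under T cell core scaling Calcrl stood at -2.21 in the PD-1 contrast, beside an all-gene median of -1.93. Per kilobase, mean Ramp1 was at 10.2, 3.05 and 0.732 CPM per kb over the groups and Calcrl at 2.91, 2.37 and 2.46. The mean of Ramp1 thus lay above that of its partner in both sialoglycan-high groups and below it in SiaLo_PD1pos. Ramp2, which turns CALCRL into an adrenomedullin receptor, averaged 8.93 ± 5.73, 3.39 ± 1.63 and 2.71 ± 0.748 CPM. It fell in the PD-1 contrast (log2 fold change -1.56, SE 0.45, adjusted p = 0.0112, edgeR), a call that was lost without replicate 1 of SiaHi_PD1neg (adjusted p = 0.143). Ramp3, another partner of CALCRL for adrenomedullin, averaged 13.3 ± 4.73, 21.4 ± 6.93 and 8.03 ± 3.91 CPM, and its log2 fold change of -1.42 (SE 0.37) between the PD-1-positive groups did not pass (adjusted p = 0.101, edgeR).

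Of the peptides, Calca, which encodes CGRP and calcitonin, averaged 0.249 ± 0.431, 4.29 ± 0.844 and 4.13 ± 1.14 CPM. It rose in the PD-1 contrast (log2 fold change 3.98, SE 0.95, adjusted p = 0.00371, edgeR), and under T cell core scaling the value was 2.11 with an adjusted p of 0.0741, which ends the call. Calcb averaged 1.13 ± 0.964, 3.31 ± 0.893 and 3.998 ± 0.253 CPM and did not pass (adjusted p = 0.067, edgeR). Of the 3 tested peptide genes, DESeq2 called 2 higher in the PD-1 contrast, and edgeR and limma-voom 1 each. Under T cell core scaling Calcb stood at -0.27 there. None of the 3 tested peptide genes was called between the PD-1-positive groups by edgeR, DESeq2 or limma-voom, and edgeR had 0 at an unadjusted p under 0.05. Adm2 and Iapp had 0 reads in all libraries, and the receptor gene Calcr had 10 reads in all and was not tested. Ramp1 and Calca thus had opposite signs in the PD-1 contrast, on both scales for Ramp1 and with a call on the TMM scale only for Calca.

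Crcp, the most abundant receptor component, averaged 32.0 ± 5.01, 38.0 ± 4.87 and 36.1 ± 1.37 CPM. Between the PD-1-positive groups, none of the 4 tested receptor genes of the CGRP family was called by the edgeR test, with 1 at an unadjusted p under 0.05, and DESeq2 and limma-voom each called 1 lower. Of 17 genes of cyclic AMP signalling, the pathway downstream of the CGRP receptor, none was called by edgeR (4 at an unadjusted p under 0.05), none by DESeq2, and limma-voom called 2 higher and 1 lower. The median log2 fold change of the 17 was 0.05, beside -0.01 for all tested genes. In the PD-1 contrast 7 of the 17 rose and 4 fell, beside 23.5% and 23.3% of all tested genes. The 3 with the smallest adjusted p were Adcy6, an adenylyl cyclase (-2.27), Crem, a cyclic AMP-responsive transcription factor (1.07), and Prkar1a, a regulatory subunit of protein kinase A (0.75). Crem and Prkar1a went to -0.87 and -1.20 under T cell core scaling.

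Calls among genes near the known roles of DAPL1 and LAD1 stand beside 1.4% of all tested genes called between the PD-1-positive groups and 46.8% in the PD-1 contrast. Of 8 NFAT and calcineurin genes, edgeR and DESeq2 called none between the PD-1-positive groups (0 at an unadjusted p under 0.05 by edgeR), and limma-voom called 1 higher. Nfatc2, the factor DAPL1 is reported to restrain, averaged 44.4 ± 9.51, 34.4 ± 7.77 and 29.95 ± 4.06 CPM, with a log2 fold change of -0.20 (SE 0.21) between the PD-1-positive ones. In the PD-1 contrast 3 of the 8 rose and 1 fell, a share near that of all genes. The gene that fell was Nfatc2 (log2 fold change -0.47, adjusted p = 0.0499, edgeR), a call lost in 9 of 17 other settings. Nfatc1 rose by 1.45 on the log2 scale but stood at -0.49 under T cell core scaling. Of 10 genes of epithelial anchoring and of the actin linkers called filamins, edgeR, DESeq2 and limma-voom called none between the PD-1-positive groups, and edgeR had 0 at an unadjusted p under 0.05. In the PD-1 contrast 3 rose and 3 fell; among those that fell, Dst fell by 1.87 and Col17a1 fell by 5.00.

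A list of naive and progenitor T cell genes did move with the 4 genes. It was known from earlier results of these libraries to be lower in SiaLo_PD1pos, so its direction is not independent evidence. Between the PD-1-positive groups 9 of its 14 genes fell and none rose by edgeR, beside 1.13% of all tested genes lower and 0.268% higher. Its median log2 fold change was -1.28, beside -0.01 for all tested genes. Without 1 library at a time, and over all the partner lists, 7 to 9 genes fell. Among those with the smallest adjusted p was Tcf7, the transcription factor of progenitor-like cells (-1.76, adjusted p = 5.67e-05, edgeR test). Slamf6, also in this list, stood at -1.78, given without a test since it was picked above for its likeness to Dapl1. Klf2, its most abundant gene, fell by 0.91, a call that was lost in 5 of the fits with 1 library left out. The list differs within itself as the 4 genes do: in the PD-1 contrast Il7r fell by 3.14 and Klf2 fell by 2.48, whereas Slamf6 rose by 0.55 and stood at -1.38 under T cell core scaling.

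Markers of other cell types also differed between the groups, and their part in the levels of the 4 genes was not tested. Between the PD-1-positive groups, called markers here and below stand beside 1.13% of all tested genes lower and 0.268% higher. In the PD-1 contrast the share of all tested genes called lower was 23.3%. The 6 plasmacytoid dendritic cell markers summed to 2564 to 4780 CPM in SiaHi_PD1neg, 218 to 324 in SiaHi_PD1pos and 178 to 241 in SiaLo_PD1pos, and 4 of the 6 fell between the PD-1-positive groups by edgeR. Among them Siglech averaged 889, 15.02 and 2.62 CPM. Within SiaHi_PD1neg, both the plasmacytoid sum and Ramp1 were highest in replicate 2. The T cell core sum (1753 CPM) and the naive and progenitor T cell sum (2597 CPM) also peaked there. The 8 conventional dendritic cell markers summed to 13414 to 15254, 2141 to 4020 and 1307 to 1623 CPM, and 6 of the 8 fell between the PD-1-positive groups. The 6 mature dendritic cell markers summed to 394 to 586, 348 to 534 and 119 to 185 CPM, a sum low in SiaLo_PD1pos alone, and 4 of the 6 fell there. The most abundant of them was Ccr7, which is also in the naive and progenitor T cell list. In the PD-1 contrast Ccr7 stood at 0.14 and did not pass (adjusted p = 0.593, edgeR), whereas 5 of the 6 markers fell. The mature dendritic cell sum and Lad1 were both highest, within SiaHi_PD1neg, in replicate 3, as was the B cell and plasma cell sum (895 CPM). Such matches over 3 libraries are shared by several lists, and a common source was not tested.

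The other lists also differed between groups. B cell and plasma cell markers summed to 518 to 895, 235 to 323 and 107 to 109 CPM, with 2 of 4 tested genes lower in SiaLo_PD1pos than in SiaHi_PD1pos, and CD4 and regulatory T cell markers to 437 to 609, 281 to 393 and 167 to 183 CPM, with 3 of 6 lower. By group means, these and the plasmacytoid, conventional and mature dendritic cell lists had the group order of Nsg2 and Ramp1. So did the macrophage, fibroblast and epithelial lists. The naive and progenitor T cell list had it too (means of 2209, 1294 and 552 CPM), so the order was not particular to markers of other cells. For mature dendritic cells the sialoglycan-high groups overlapped (means of 468 and 443 CPM). The PD-1-positive groups overlapped for the plasmacytoid, macrophage and fibroblast lists. Melanoma markers were lowest in SiaHi_PD1pos, at 818 to 946 CPM against 3836 to 8114 in SiaHi_PD1neg and 1611 to 3210 in SiaLo_PD1pos, and 3 of 7 rose between the PD-1-positive groups. Macrophage and monocyte markers summed to 2729 to 3413, 1102 to 2116 and 927 to 1178 CPM. Fibroblast and endothelial markers summed to 879 to 1234, 430 to 475 and 323 to 504 CPM, and natural killer and innate lymphoid markers to 73.3 to 93.6, 160 to 239 and 141 to 152 CPM. None of these last 3 lists had a gene called between the PD-1-positive groups by edgeR, with 3 of 7, 0 of 5 and 2 of 6 at an unadjusted p under 0.05; DESeq2 called 1, 0 and 0 of their genes lower, and limma-voom 1, 1 and 3.

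LAD1 is known from epithelium and NSG2 from neurons, and the part of such cells in the levels of both genes was not tested. Keratinocyte and epithelial markers summed to 73.6 to 136 CPM in SiaHi_PD1neg, mostly Cdh1 at a mean of 95.2 CPM, to 13.8 to 14.1 in SiaHi_PD1pos and to 7.51 to 12.8 in SiaLo_PD1pos. Of these 7 markers Krt8 had 0 reads in all libraries, and Krt5, Krt14 and Krt18 had too few for testing (62, 8 and 18 reads over the 9 libraries). Neuron and Schwann cell markers summed to 29.0 to 60.8 CPM in SiaHi_PD1neg, 11.4 to 22.4 in SiaHi_PD1pos and 24.6 to 29.9 in SiaLo_PD1pos. Among these 8 markers Syt1 had 0 reads in all libraries and Snap25 had 3 in all. Others were present: Tubb3 averaged 20.3, 3.38 and 5.92 CPM over the groups, and Map2, the most abundant, 5.07, 11.3 and 14.3. No gene of either list was called between the PD-1-positive groups by edgeR (0 with an unadjusted p under 0.05) or by DESeq2, and limma-voom called 1 epithelial marker lower.

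**Figure D5:**
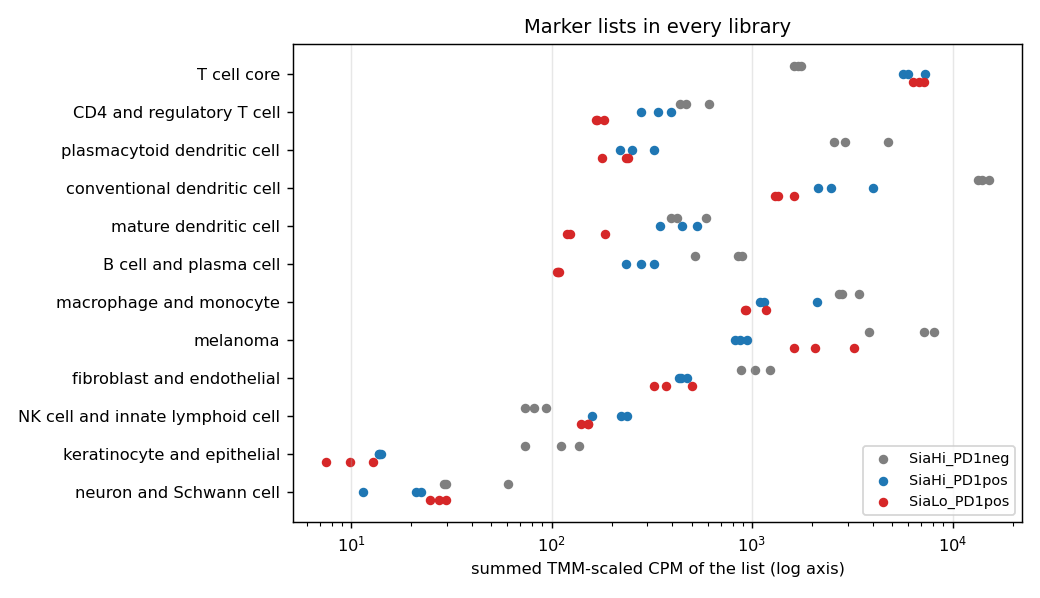
Summed TMM-scaled CPM (log axis) of the marker genes of 12 cell types in each library, coloured by sorted group. T cell core genes are lowest in SiaHi_PD1neg (1610 to 1753 CPM), where plasmacytoid dendritic cell markers are highest (2564 to 4780 CPM), and the mature dendritic cell markers are lowest in SiaLo_PD1pos (119 to 185 CPM).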

How the data were processed

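RNA was sequenced from CD8+ T cells sorted into 3 groups of 3 libraries. The authors deposited a table of raw gene counts, made with Trim Galore 0.6.5, STAR 2.7.6a and featureCounts 1.6.3 on GRCm38, per the submitters' processing notes. For counting, strand setting and annotation release are not given in the sources used, and without strand the reads of antisense genes cannot be told apart. Library totals are the column sums. From the deposited counts, genes were filtered by filterByExpr, scaled by TMM and fitted in edgeR 4.0.16 (quasi-likelihood F test, robust, 1 fit over 9 libraries; R 4.3.3), with Benjamini-Hochberg adjustment over 15292 genes and a threshold of 0.05. A simulation with 200 changed genes checked the code. DESeq2 1.42.0 and limma 3.58.1 (voom with quality weights) were alternatives. Likeness used log2 CPM with a prior count of 2. Sequences came from RefSeq tables, read in Python 3.11.15.

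The 4 genes and all gene lists were chosen with earlier results of these data known. Genes named besides the 4 are their families, sort checks, the up to 3 genes with the smallest adjusted p and the most abundant gene of each partner list, marker genes that are most abundant in their list, the 3 most alike genes and the neighbours. Nfatc2, Calcb, Adm2, Iapp, Siglech, Krt5, Krt8, Krt14, Krt18, Syt1, Snap25 and Tubb3 fall outside that rule and were named after their values were seen. Not every gene this rule gives is reported here.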

Additional observations from a re-analysis of the deposited data

How the results depend on the processing

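Over the alternatives tried, Nsg2 and Ramp1 kept their direction and their call in the PD-1 contrast. All 4 genes kept their direction between the PD-1-positive groups, which their choice on these libraries made likely and which is no test. T cell core scaling reversed Dapl1 (-1.02) and Lad1 (-1.23) in the PD-1 contrast. Leaving out 1 library at a time gave 0.85 to 1.09 for Dapl1, -2.28 to -2.11 for Nsg2, 0.37 to 1.54 for Lad1 (among these 9 fits called only without replicate 3 of SiaHi_PD1neg) and -2.98 to -2.34 for Ramp1. Between the PD-1-positive groups, genes called higher (41 as reported) numbered 11 under T cell core scaling, 187 without the low-count filter, 126 with DESeq2, 541 with limma-voom and 65 with a replicate block, and 14 to 66 with 1 library left out. Genes called lower there (173) numbered 348 without the filter, 340 with DESeq2 and 732 with limma-voom, and 81 to 166 with 1 library left out. Marker genes called higher (3) numbered 0, 7, 7, 10 and 7 in the order of settings given for the higher genes, 7 with a stricter filter of 5 CPM in 3 libraries, and 0 to 7 with 1 library left out; marker genes called lower (19) numbered 29 and partner genes called higher (0) numbered 3 with limma-voom. In the PD-1 contrast T cell core scaling changed the calls from 3595 to 306 higher and from 3562 to 13008 lower over all genes, from 15 to 3 higher among marker genes, and from 16 to 0 higher and 19 to 54 lower among partner genes; by its construction this setting moves the median of all genes to -1.93. Deviations of same-numbered replicates from their group means correlated at -0.01 to 0.12, not above 0.1 in every pair, so the samples were not treated as paired, although a library correlated best with its own number in 13 of 18 comparisons with another group, a hint from the data and not from the design; with the replicate block the PD-1 contrast gave 0.93 for Dapl1, -2.24 for Nsg2, 0.89 for Lad1 (adjusted p = 0.0565) and -2.74 for Ramp1. With a prior count of 0.5, the 3 genes most like each gene stayed the same, except that Il7r replaced H2-Eb2 for Ramp1. T cell core scaling also left them the same. That scaling shifts all genes of a library alike, so it could hardly change likeness and is no check of it. Depth limits Ramp1, Lad1 and Nsg2 in SiaLo_PD1pos, where each had 22 to 62 reads per library, and counting error is largest.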
